A study of Schizosaccharomyces pombe with 12 samples.

Results

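The genes of phosphate supply in fission yeast, Schizosaccharomyces pombe, were followed across 4 strains on 12 tiling arrays. They were chosen by name and systematic ID: pho1 (SPBP4G3.02), pho4 (SPBC428.03c), pho84 (SPBC8E4.01c), tgp1 (SPBC1271.09) and pho7 (SPBC27B12.11c). All 5 of these 5 genes were measured, among 5483 features in all. The strains were wild type (SPB80), dcr1Δ (SPB81), dcr1ΔC33 (SPB287) and dcr1-SHSS (SPB776), with 3 biological replicates each, collected at an OD600 of 0.5. Each genotype was represented by 1 strain. The labels name no alleles beyond those at dcr1, and no growth medium, so its phosphate and thiamine content is unknown here. The dcr1 gene encodes Dicer, the ribonuclease of RNA interference. The labels give dcr1ΔC33 and dcr1-SHSS by name only. By its title, the study is about how a zinc-binding RNA-binding domain keeps Dicer in the nucleus.

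When phosphate is scarce, fission yeast raises a small set of genes that free and import phosphate. Pho1 is an acid phosphatase of the cell surface, Pho84 imports inorganic phosphate, Tgp1 imports glycerophosphodiesters, and Pho7 is the zinc-cluster transcription factor that activates all 3 genes. Pho4 is a related acid phosphatase whose gene is known for repression by thiamine rather than by phosphate. When phosphate is plentiful, transcription of long non-coding RNAs through the promoters keeps the 3 genes low: prt upstream of pho1, prt2 upstream of pho84 and nc-tgp1 upstream of tgp1. Termination factors and the nuclear exosome, which degrades RNA, act on these non-coding RNAs.

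Values below are the deposited log2 levels, 1 per feature and array, and differences between them are log2 changes with the moderated standard error (SE). Tests are limma's moderated test over all 12 arrays, with p adjusted by Benjamini and Hochberg over all 5483 features. A change passed at an adjusted p under 0.05. The signal was made from double-stranded target, so RNA of a gene and RNA of the opposite strand are not told apart. Levels of different genes are not comparable on this scale. As a check of the labels, the mean level of dcr1 itself (SPCC188.13c) was 5.56 in dcr1Δ, against 10.55 in wild type; dcr1ΔC33 had 10.87, and dcr1-SHSS 10.67. All 5 phosphate genes lay above the lowest 20 percent of features on the arrays. The 3 comparisons with wild type use the same wild-type arrays and are therefore not independent of each other.

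The share of all features that passed differed widely between comparisons. It was 3.14 percent in dcr1Δ versus wild type, 32.3 percent in dcr1ΔC33 versus wild type and 40.7 percent in dcr1-SHSS versus wild type. Between mutants it was 7.9 percent for dcr1ΔC33 versus dcr1Δ, 26.6 percent for dcr1-SHSS versus dcr1Δ and 0.146 percent for dcr1-SHSS versus dcr1ΔC33. These shares are themselves uncertain. The 172 features called in dcr1Δ versus wild type became 82 without dcr1Δ array 2, 95 without dcr1Δ array 3, 96 without wild-type array 2, and 295 with the replicate block. The 1771 of dcr1ΔC33 versus wild type became 1178 without dcr1ΔC33 array 3. The 433 of dcr1ΔC33 versus dcr1Δ became 120 to 235 without dcr1Δ array 1 or 2 or any dcr1ΔC33 array, and 847 with the block. The 1456 of dcr1-SHSS versus dcr1Δ became 750, 937 and 968 without dcr1Δ array 1, dcr1Δ array 2 and dcr1-SHSS array 2. Of the 5 phosphate genes, 1 fell and none rose in dcr1Δ, where 0.328 percent of features fell and 2.81 percent rose. In dcr1ΔC33, 3 fell and 1 rose, beside 17.6 and 14.7 percent of features. In dcr1-SHSS, 3 fell and 1 rose, beside 25.8 and 15.0 percent. Against dcr1Δ, 2 of the 5 were higher and 1 lower in dcr1ΔC33, where 4.61 percent of features were higher and 3.28 percent lower. In dcr1-SHSS, 2 were higher and 1 lower than in dcr1Δ, beside 8.85 and 17.7 percent. Between dcr1-SHSS and dcr1ΔC33 none of the 5 passed, beside 0.0547 percent of features higher and 0.0912 percent lower. Against wild type, the median log2 change of the 5 was -0.09 for dcr1Δ, -0.23 for dcr1ΔC33 and -0.17 for dcr1-SHSS, beside 0.0, -0.03 and -0.06 over all features. Where so many features pass, as in dcr1ΔC33 and dcr1-SHSS, a single small change is to be read beside that share.

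**Figure D1:**
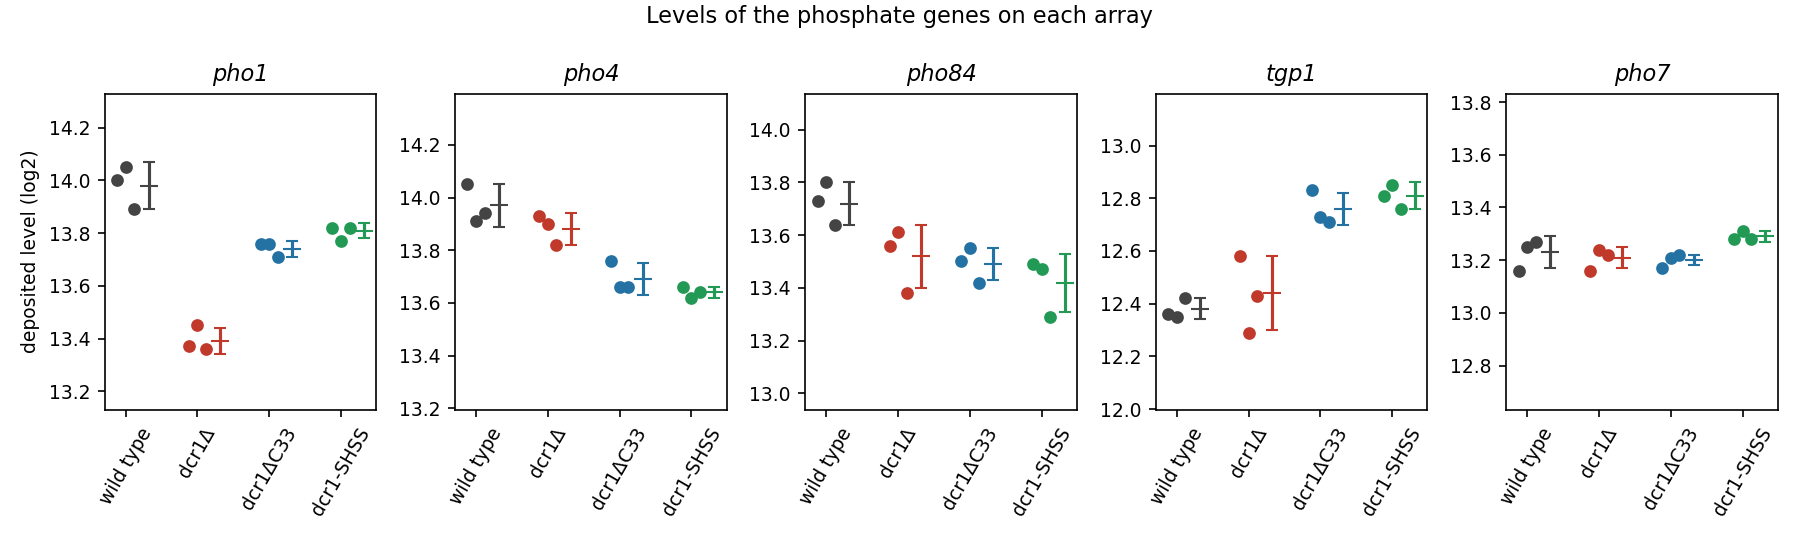
Deposited log2 level (vertical axis) of each of the 5 genes on each of the 3 arrays of the 4 strains (points), with the mean and SD of each strain beside them (bars); every panel spans the same range of log2 units. The dcr1Δ arrays are lowest for pho1, the dcr1ΔC33 and dcr1-SHSS arrays are highest for tgp1, and pho7 lies between 13.16 and 13.31 on all arrays.

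The acid phosphatase gene pho1 fell in every mutant, and most in the deletion strain. Its level was 14.0, 14.05 and 13.89 on the wild-type arrays and 13.37, 13.45 and 13.36 on the dcr1Δ arrays. It was 13.76, 13.76 and 13.71 in dcr1ΔC33, and 13.82, 13.77 and 13.82 in dcr1-SHSS. The dcr1Δ arrays were the lowest of all, the wild-type arrays the highest, and no mutant array overlapped with wild type.

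In dcr1Δ pho1 fell by 33.4 percent (log2 change -0.59 ± 0.05 SE, n = 3 per group, limma adjusted p = 4.09e-05). This was the 11th lowest change of all features, in a comparison where 0.328 percent of features fell. In dcr1ΔC33 it fell by 15.2 percent (-0.24 ± 0.05, limma adjusted p = 0.00368), where 17.6 percent of features fell. In dcr1-SHSS it fell by 11.3 percent (-0.17 ± 0.05, limma adjusted p = 0.0136), where 25.8 percent of features fell. The last call was lost in a fit to these 2 strains alone (limma adjusted p = 0.0522).

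The decrease of pho1 in dcr1Δ was larger than in the other alleles by a direct test. The level was 0.35 ± 0.05 higher in dcr1ΔC33 than in dcr1Δ (limma adjusted p = 0.00199, 95 percent interval 0.25 to 0.45). It was 0.41 ± 0.05 higher in dcr1-SHSS than in dcr1Δ (limma adjusted p = 0.000421, interval 0.31 to 0.52). Between dcr1-SHSS and dcr1ΔC33 the difference of 0.07 ± 0.05 did not pass (limma adjusted p = 0.514, interval -0.04 to 0.17). In order from low to high, the strains were dcr1Δ, dcr1ΔC33, dcr1-SHSS and wild type, with the middle pair not told apart by the test.

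The phosphate importer gene pho84, which lies next to pho1, had lower means in all mutants, with a different pattern. Its level was 13.73, 13.8 and 13.64 in wild type and 13.56, 13.61 and 13.38 in dcr1Δ. It was 13.5, 13.55 and 13.42 in dcr1ΔC33, and 13.49, 13.47 and 13.29 in dcr1-SHSS. The 3 wild-type arrays were above all mutant arrays, and the mutants overlapped with each other.

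In dcr1-SHSS pho84 fell by 19.1 percent (log2 change -0.31 ± 0.07 SE, n = 3 per group, limma adjusted p = 0.00934). In dcr1ΔC33 it fell by 14.8 percent (-0.23 ± 0.07, limma adjusted p = 0.0371). Leaving out wild-type array 1 or 2, or any 1 dcr1ΔC33 array, ended that call (limma adjusted p up to 0.121). In dcr1Δ the change of -0.21 ± 0.07 did not pass (limma adjusted p = 0.182), although it did with the replicate number as a block (limma adjusted p = 0.0147), and the numbers pair the arrays in this comparison. The interval of that change, -0.37 to -0.04, contains the changes seen in the other mutants. No difference between mutants passed for pho84, and the largest was 0.1 ± 0.07 lower in dcr1-SHSS than in dcr1Δ (limma adjusted p = 0.339, interval -0.27 to 0.07).

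The neighbours pho1 and pho84 were also compared within each array. The level of pho1 minus that of pho84 on the same array was 0.27, 0.25 and 0.25 in wild type and -0.19, -0.16 and -0.02 in dcr1Δ. In dcr1ΔC33 it was 0.26, 0.21 and 0.29, and in dcr1-SHSS 0.33, 0.3 and 0.54. The dcr1Δ arrays lay below all others. The means of dcr1Δ and wild type differed by -0.38 (2-sided exact permutation p = 0.1), which is the smallest p that 3 against 3 arrays allow. For dcr1-SHSS and wild type the difference was 0.13, of opposite sign and also without overlap (exact permutation p = 0.1). For dcr1ΔC33 and wild type it was -0.01 (exact permutation p = 0.9). At this number of arrays none of these differences could pass.

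The glycerophosphodiester importer gene tgp1 went the opposite way, and only in 2 of the 3 mutants did it pass. Its level was 12.36, 12.35 and 12.42 in wild type and 12.58, 12.29 and 12.43 in dcr1Δ. It was 12.83, 12.73 and 12.71 in dcr1ΔC33, and 12.81, 12.85 and 12.76 in dcr1-SHSS. The dcr1ΔC33 and dcr1-SHSS arrays were above every wild-type and dcr1Δ array, and dcr1Δ overlapped with wild type.

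The gene tgp1 rose by 30.0 percent in dcr1ΔC33 (log2 change 0.38 ± 0.07 SE, n = 3 per group, limma adjusted p = 0.00213), where 14.7 percent of features rose. It rose by 34.9 percent in dcr1-SHSS (0.43 ± 0.07, limma adjusted p = 0.000781), where 15.0 percent of features rose. In dcr1Δ the change was 0.06 ± 0.07 (limma adjusted p = 0.684, interval -0.09 to 0.21). The difference between alleles passed directly: tgp1 was 0.37 ± 0.07 higher in dcr1-SHSS than in dcr1Δ (limma adjusted p = 0.00415). It was 0.32 ± 0.07 higher in dcr1ΔC33 than in dcr1Δ (limma adjusted p = 0.0185), a call lost without dcr1ΔC33 array 1 or 3 (up to 0.0692) and in a fit to these 2 strains alone (0.0695). The dcr1-SHSS and dcr1ΔC33 levels differed by 0.05 ± 0.07 (limma adjusted p = 0.737, interval -0.09 to 0.2).

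The thiamine-repressed acid phosphatase gene pho4 fell in the same 2 mutants in which tgp1 rose. Its level was 14.05, 13.91 and 13.94 in wild type and 13.93, 13.9 and 13.82 in dcr1Δ. It was 13.76, 13.66 and 13.66 in dcr1ΔC33, and 13.66, 13.62 and 13.64 in dcr1-SHSS. The arrays of dcr1ΔC33 and dcr1-SHSS lay below all wild-type and dcr1Δ arrays, and wild type and dcr1Δ overlapped.

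In dcr1ΔC33 pho4 fell by 17.5 percent (log2 change -0.28 ± 0.05 SE, n = 3 per group, limma adjusted p = 0.00214). In dcr1-SHSS it fell by 20.3 percent (-0.33 ± 0.05, limma adjusted p = 0.000629). In dcr1Δ the change of -0.09 ± 0.05 did not pass (limma adjusted p = 0.39, interval -0.19 to 0.02). The level in dcr1-SHSS was below that in dcr1Δ by a log2 change of -0.24 ± 0.05 (limma adjusted p = 0.0068). For dcr1ΔC33 versus dcr1Δ the change was -0.19 ± 0.05 (limma adjusted p = 0.0382). The call between dcr1ΔC33 and dcr1Δ was lost without wild-type array 3, dcr1Δ array 1 or 2, any dcr1ΔC33 array, or dcr1-SHSS array 1 or 3 (up to 0.134), after quantile normalization (0.0588) and when only these strains were fitted (0.0746). Between dcr1-SHSS and dcr1ΔC33 the change of -0.05 ± 0.05 did not pass (limma adjusted p = 0.636).

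Both acid phosphatase genes therefore had their lowest mean levels in different strains, pho1 in dcr1Δ and pho4 in dcr1-SHSS. For pho4, dcr1-SHSS was not told apart from dcr1ΔC33 by the test. The level of pho1 minus that of pho4 on the same array was -0.06, 0.15 and -0.06 in wild type and -0.57, -0.45 and -0.45 in dcr1Δ. It was -0.0, 0.1 and 0.05 in dcr1ΔC33, and 0.17, 0.15 and 0.18 in dcr1-SHSS. The dcr1Δ arrays were below all others. The means of dcr1Δ and wild type differed by -0.5, and those of dcr1-SHSS and dcr1Δ by 0.66 (exact permutation p = 0.1 each, the smallest possible). For dcr1ΔC33 and wild type the difference was 0.04 (exact permutation p = 0.6). Whether probes are shared between the related genes pho1 and pho4 was not tested.

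**Figure D2:**
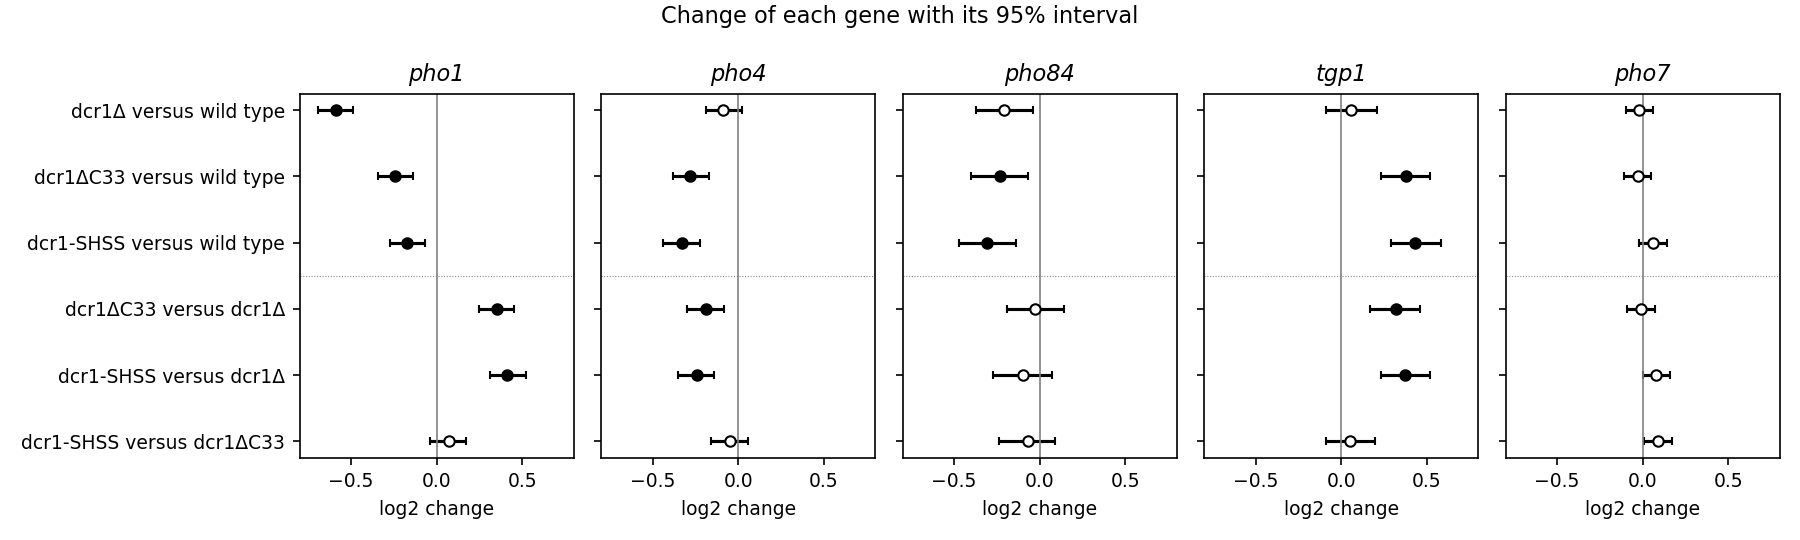
Log2 change (horizontal axis) of each gene in the 6 comparisons (vertical axis), with its 95 percent interval; filled points passed at an adjusted p under 0.05 and open points did not. For pho1 the decrease is largest in dcr1Δ (-0.59), whereas tgp1 and pho4 passed in dcr1ΔC33 and dcr1-SHSS but not in dcr1Δ, and pho7 passed in none of the 6.

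For the activator gene pho7 no comparison passed. Its level was 13.16, 13.25 and 13.27 in wild type and 13.16, 13.24 and 13.22 in dcr1Δ. It was 13.17, 13.21 and 13.22 in dcr1ΔC33, and 13.28, 13.31 and 13.28 in dcr1-SHSS. The dcr1-SHSS arrays were slightly above all others, which overlapped. The change against wild type was -0.02 ± 0.04 in dcr1Δ (limma adjusted p = 0.823, interval -0.1 to 0.06) and -0.03 ± 0.04 in dcr1ΔC33 (limma adjusted p = 0.569, interval -0.11 to 0.05). In dcr1-SHSS it was 0.06 ± 0.04 (limma adjusted p = 0.221, interval -0.02 to 0.14). The largest difference between strains, 0.09 ± 0.04 between dcr1-SHSS and dcr1ΔC33, had a limma adjusted p of 0.287. Against wild type, no bound of these intervals lay beyond 0.14 in either direction.

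The genes next to pho84 and pho1 were read from the reference gene order, 3 measured features on each side. The feature SPBC8E4.02c, an ID listed as a synonym of the non-coding RNA prt2, was higher in every mutant mean while pho84 was lower. Its level was 10.97, 11.06 and 11.47 in wild type and 11.84, 11.51 and 11.74 in dcr1Δ. It was 12.16, 12.01 and 12.2 in dcr1ΔC33, and 12.15, 11.87 and 12.24 in dcr1-SHSS. All mutant arrays were above all wild-type arrays. The prt2 feature rose by 0.96 ± 0.14 in dcr1ΔC33 (limma adjusted p = 0.000788) and by 0.93 ± 0.14 in dcr1-SHSS (limma adjusted p = 0.000737). In dcr1Δ the change of 0.53 ± 0.14 did not pass (limma adjusted p = 0.0746), but did with the replicate block (0.0192). The calls in dcr1ΔC33 and dcr1-SHSS held in all 18 alternative fits. Which stretch of prt2 its probes cover is unknown here, and no feature was matched to prt or nc-tgp1, which were not analysed here.

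Other neighbours of pho84 and pho1 also rose in dcr1ΔC33 and dcr1-SHSS. The gene SPBC8E4.03 rose by 0.77 ± 0.09 in dcr1ΔC33 and by 0.76 ± 0.09 in dcr1-SHSS (limma adjusted p = 0.000155 and 0.000135), with 0.15 ± 0.09 in dcr1Δ (0.412). On the far side of pho1, fub2 rose by 1.06 ± 0.16 and 1.1 ± 0.16 (limma adjusted p = 0.00111 and 0.000687), from a wild-type mean of 6.86, within the lowest 20 percent of features. The non-coding RNA SPNCRNA.446, the nearest measured feature beyond pho1 and also among the lowest 20 percent, rose in dcr1ΔC33 (0.36 ± 0.08, limma adjusted p = 0.00823; 0.0667 after quantile normalization). In dcr1-SHSS its change was 0.02 ± 0.08. Its means, 5.18 in wild type and 5.54 in dcr1ΔC33, were no higher than that of the deleted dcr1 gene in dcr1Δ (5.56). Of the measured features from SPBC8E4.03 to fub2, those that fell in dcr1ΔC33 and dcr1-SHSS were pho84 and pho1.

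**Figure D3:**
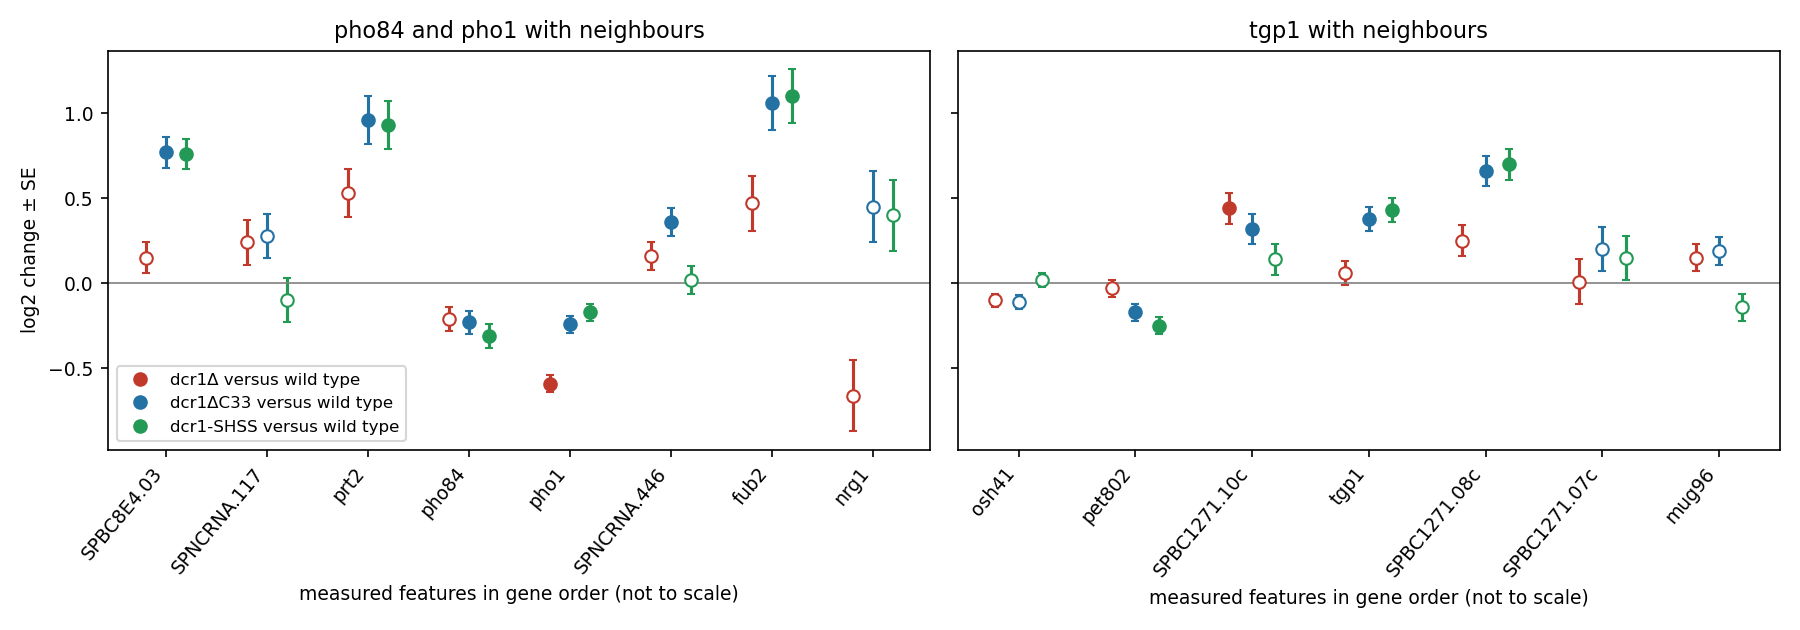
Log2 change against wild type with its SE (vertical axis) for the measured features around pho84 and pho1 (left) and around tgp1 (right), in gene order and not to scale along the genome; colours are the 3 mutants, and filled points passed at an adjusted p under 0.05. In the left panel pho84 and pho1 lie below 0 between prt2 and fub2, which are near 1 in dcr1ΔC33 and dcr1-SHSS; in the right panel SPBC1271.08c rises along with tgp1.

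Around tgp1, the neighbour SPBC1271.08c followed a like pattern. Its level was 12.15, 11.9 and 12.26 in wild type and 12.3, 12.28 and 12.48 in dcr1Δ. It was 12.78, 12.7 and 12.8 in dcr1ΔC33, and 12.81, 12.68 and 12.92 in dcr1-SHSS. The arrays of dcr1ΔC33 and dcr1-SHSS were above all wild-type and dcr1Δ arrays. SPBC1271.08c rose by 0.66 ± 0.09 in dcr1ΔC33 (limma adjusted p = 0.000715) and by 0.7 ± 0.09 in dcr1-SHSS (0.000348), with 0.25 ± 0.09 in dcr1Δ (0.193, or 0.032 with the replicate block).

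On the other side of tgp1, SPBC1271.10c rose in dcr1Δ (0.44 ± 0.09, limma adjusted p = 0.0343) and dcr1ΔC33 (0.32 ± 0.09, 0.0267). Those calls were lost in 9 and 5 of 18 alternative fits, with adjusted p up to 0.166 and 0.0795 (the fit to the 2 strains alone and fits without single arrays, among them wild-type array 1 or 2). The next gene, pet802, fell by 0.17 ± 0.05 in dcr1ΔC33 (limma adjusted p = 0.0234, up to 0.0907 without wild-type array 2 or 3 or dcr1ΔC33 array 1 or 3) and by 0.25 ± 0.05 in dcr1-SHSS (0.00279).

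Near pho4, nup107, a nuclear pore gene, fell by 0.19 ± 0.05 in dcr1ΔC33 (limma adjusted p = 0.0196, up to 0.0604 without wild-type array 2 or 3 or dcr1ΔC33 array 1 or 3) and by 0.28 ± 0.05 in dcr1-SHSS (0.0027). The gene rhp1602 passed in dcr1ΔC33 (0.14 ± 0.05, limma adjusted p = 0.0497), a call lost in 14 of 17 alternative fits, with every strain among the arrays left out (up to 0.839). Near pho7, tom40, which encodes the channel of the mitochondrial outer membrane, fell by 0.17 ± 0.04 and 0.25 ± 0.04 (limma adjusted p = 0.00636 and 0.000652). The gene flx1 fell in dcr1-SHSS (-0.43 ± 0.08, limma adjusted p = 0.00204) and in dcr1ΔC33 (-0.24 ± 0.08, 0.0393), the latter lost in 8 of 18 alternative fits (up to 0.127; the fit to the 2 strains alone, and without wild-type array 1 or 2, dcr1Δ array 1, any dcr1ΔC33 array or dcr1-SHSS array 1). In dcr1-SHSS cbp4 rose (0.3 ± 0.1, limma adjusted p = 0.0319; up to 0.101 without wild-type array 2 or 3 or dcr1-SHSS array 1 or 3). Of the 24 neighbours that are not among the 5 genes, 1 rose and none fell in dcr1Δ. In dcr1ΔC33, 7 rose and 4 fell, and in dcr1-SHSS, 5 rose and 4 fell. Over all features the shares that rose and fell were 2.81 and 0.328 percent in dcr1Δ, 14.7 and 17.6 percent in dcr1ΔC33, and 15.0 and 25.8 percent in dcr1-SHSS.

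Of 7 measured genes that signal or store phosphate, none passed in dcr1Δ, beside 3.14 percent of all features. The smallest p there was that of vtc2 (-0.25 ± 0.07, limma adjusted p = 0.09), which passed with the replicate block (0.0413). In dcr1ΔC33 and in dcr1-SHSS 1 rose and 1 fell, beside 14.7 and 17.6 percent of all features in the former and 15.0 and 25.8 percent in the latter. The riser was asp1, the kinase that makes inositol pyrophosphates, which report phosphate status. Its level was 11.72, 11.77 and 11.75 in wild type, 11.89, 11.85 and 11.88 in dcr1ΔC33, and 12.03, 12.01 and 11.99 in dcr1-SHSS, without overlap. The change was 0.13 ± 0.04 in dcr1ΔC33 (limma adjusted p = 0.0211; leaving out wild-type array 1 or dcr1ΔC33 array 1 or 3 ended the call, with p up to 0.0672) and 0.26 ± 0.04 in dcr1-SHSS (0.00041).

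The gene that fell was vtc2, a subunit gene of the complex that makes and stores polyphosphate in the vacuole. Its change was -0.31 ± 0.07 in dcr1ΔC33 (limma adjusted p = 0.00759) and -0.41 ± 0.07 in dcr1-SHSS (0.00132). The phosphatase genes of inositol pyrophosphates, aps1 and siw14, the kinase gene csk1, the ubiquitin ligase gene pqr1 and vtc4 did not pass in any mutant against wild type. The median change of the list was -0.03, -0.08 and -0.04 in the 3 mutants, beside 0.0, -0.03 and -0.06 over all features.

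Among 6 other measured phosphatase and phosphate transport genes, none passed in dcr1Δ or dcr1ΔC33, beside 3.14 and 32.3 percent of all features. In dcr1-SHSS 2 fell, where 25.8 percent of all features fell. These were SPBC4.06 (-0.15 ± 0.05, limma adjusted p = 0.0431) and SPBC21H7.03c (-0.1 ± 0.04, 0.0466). Each of these calls was lost in 11 of 18 alternative fits, quantile normalization and median centring among them, with adjusted p up to 0.125 and 0.142, and fits without single arrays of every strain among them. The smallest p in dcr1Δ and in dcr1ΔC33 was that of SPBPB2B2.06c (-0.55 ± 0.2 and 0.43 ± 0.2, limma adjusted p = 0.179 and 0.119). The pho84 paralogue pho841 had changes of -0.12 ± 0.06, 0.0 ± 0.06 and 0.11 ± 0.06, none of which passed.

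Since pho4 belongs to the thiamine-repressed genes, 8 genes of thiamine synthesis, uptake and control were read beside it. None passed in dcr1Δ, beside 3.14 percent of all features, and tnr3 had the smallest p there (-0.14 ± 0.06, limma adjusted p = 0.256). In dcr1ΔC33, 1 rose and 2 fell. In dcr1-SHSS, 1 rose and 5 fell, or 1 and 2 when only these strains were fitted or when wild-type array 1 or dcr1-SHSS array 2 was left out. With the replicate number as a block 1 rose and 5 fell in dcr1ΔC33, where the numbers pair the arrays; without wild-type array 2 the counts there were 1 and 4, and without dcr1-SHSS array 3 they were 2 and 3. Over all features 14.7 percent rose and 17.6 percent fell in dcr1ΔC33, and 15.0 and 25.8 percent in dcr1-SHSS. The median change of the list was -0.1, -0.19 and -0.2, beside 0.0, -0.03 and -0.06 over all features.

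The thiamine gene that rose was thi2, which encodes an enzyme that makes the thiazole part of thiamine. Its level was 11.39, 11.26 and 11.32 in wild type and 12.08, 12.45 and 12.44 in dcr1ΔC33. On the dcr1-SHSS arrays it was 13.01, 12.95 and 11.91, with the third array apart from the others but above wild type. The rise was 1.0 ± 0.25 in dcr1ΔC33 (limma adjusted p = 0.0118) and 1.3 ± 0.25 in dcr1-SHSS (0.00249). This was opposite to pho4 in the same strains.

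The thiamine genes that fell included thi5 and thi1, which encode transcription factors of this pathway. The change of thi5 in dcr1ΔC33 was -0.3 ± 0.05 (limma adjusted p = 0.00107), and that of thi1 was -0.14 ± 0.04 (0.0133). Both also fell in dcr1-SHSS, thi5 by -0.21 ± 0.05 (limma adjusted p = 0.00462) and thi1 by -0.18 ± 0.04 (0.00353). In dcr1-SHSS the lowest were the vitamin transporter gene bsu1 (-0.43 ± 0.14, limma adjusted p = 0.0285, up to 0.0965 in the fit to these 2 strains alone or without wild-type array 1 or dcr1-SHSS array 2) and thi4 (-0.33 ± 0.12, 0.0482). The call of thi4 was lost in 11 of 18 alternative fits (up to 0.164), after quantile normalization and median centring among others, and without single arrays of every strain. The strongly thiamine-repressed gene nmt1 did not pass (0.11 ± 0.15, 0.28 ± 0.15 and 0.31 ± 0.15 in the 3 mutants).

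Of 17 measured genes for transcription termination and the nuclear exosome, 1 rose and none fell in dcr1Δ, beside 2.81 and 0.328 percent of all features. In dcr1ΔC33, 2 rose and 4 fell, and in dcr1-SHSS, 1 rose and 6 fell (1 and 2 when only these strains were fitted or without dcr1-SHSS array 2, 1 and 3 after median centring or without wild-type array 1). The shares over all features were 14.7 percent up and 17.6 percent down in dcr1ΔC33, and 15.0 and 25.8 percent in dcr1-SHSS. Without the replicate block the counts above are near them. With the block, red1, swd22 and pla1 also passed as lower in dcr1ΔC33 (limma adjusted p = 0.0442, 0.0466 and 0.0353), where the numbers pair the arrays. The block also raised the number of all features that fell there, so these calls are not to be read beside 17.6 percent. The gene that stood highest in each mutant was ppn1, a subunit gene of the cleavage and polyadenylation factor. Its level was 12.2, 12.05 and 12.2 in wild type, 12.46, 12.36 and 12.49 in dcr1Δ, 12.59, 12.63 and 12.73 in dcr1ΔC33, and 12.99, 12.83 and 13.01 in dcr1-SHSS. None of the mutant arrays overlapped with wild type.

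The rise of ppn1 was 0.5 ± 0.06 in dcr1ΔC33 (limma adjusted p = 0.000354) and 0.79 ± 0.06 in dcr1-SHSS (1.24e-05). In dcr1Δ it was 0.29 ± 0.06 (0.0401), a call lost in 12 of 18 alternative fits, any single wild-type or dcr1Δ array left out among them (up to 0.154). The termination factor gene rhn1 fell by 0.23 ± 0.05 in dcr1ΔC33 (limma adjusted p = 0.00741) and by 0.2 ± 0.05 in dcr1-SHSS (0.0123). The exosome-associated helicase gene mtl1 fell by 0.23 ± 0.05 and 0.24 ± 0.05 (0.00787 and 0.00482). For mmi1 and red1, whose products bring RNAs to the exosome, no change against wild type passed, except that of red1 in dcr1ΔC33 with the replicate block (-0.16 ± 0.05, limma adjusted p = 0.0442). The median change of the list was -0.04, -0.11 and -0.09, beside 0.0, -0.03 and -0.06 over all features.

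**Figure D4:**
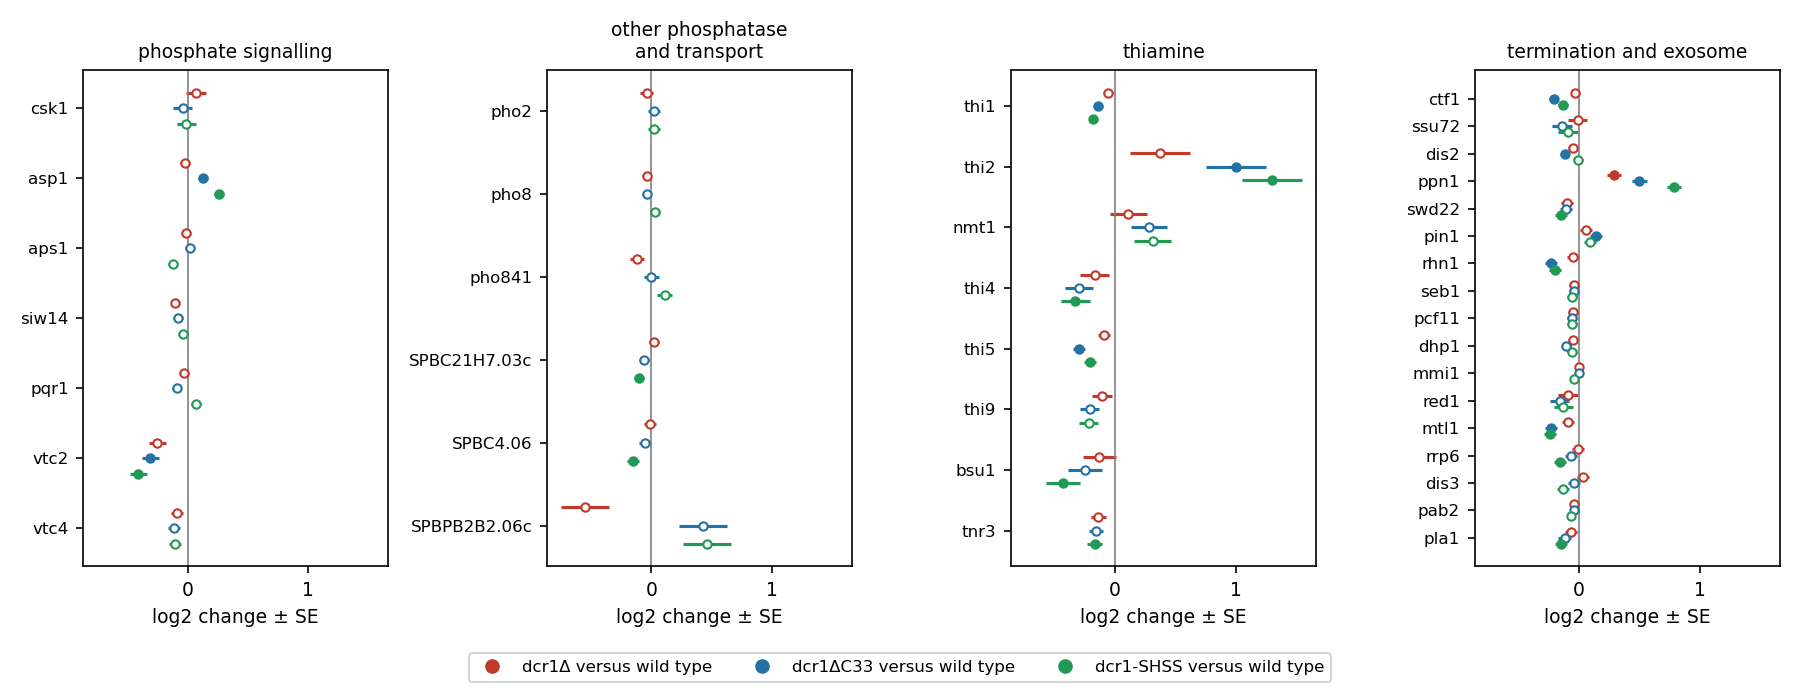
Log2 change against wild type with its SE (horizontal axis) of each measured gene of 4 lists (vertical axis) in the 3 mutants (colours); filled points passed at an adjusted p under 0.05. Most genes lie within 0.3 of 0, thi2 and ppn1 lie to the right in dcr1ΔC33 and dcr1-SHSS, and vtc2 and most thiamine genes lie to the left. SPBPB2B2.06c, which did not pass, lies to the left in dcr1Δ (-0.55) and to the right in dcr1ΔC33 (0.43) and dcr1-SHSS (0.46).

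The 5 genes did not share 1 pattern over the arrays. As a description over 12 arrays, which include the same 4 strains, Pearson's r was 0.42 between pho1 and pho84, 0.02 between pho1 and pho4, and 0.06 between pho1 and tgp1. It was 0.73 between pho4 and pho84, and -0.85 between pho4 and tgp1. Between pho7 and the other 4 genes it ranged from -0.47 with pho4 to 0.25 with pho1. Over the deviations of the arrays from their strain means, r was 0.55 between pho1 and pho84 and 0.25 between pho4 and tgp1. The opposed course of pho4 and tgp1 thus lay between strains and not within them. By the same measure r was -0.8 between pho4 and pho7, the strongest of all pairs, and -0.5 between pho1 and tgp1.

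The features closest to each gene by r over the 12 arrays differed accordingly. For pho1 these were gdt1 (0.898), the nuclear pore gene npp106 (0.884) and dcr1 (0.877), of which gdt1 and dcr1 are themselves far lower in dcr1Δ than in the other strains. By Spearman's rho, gdt1 and dcr1 were at 0.573 and 0.203 and npp106 at 0.902, so the rank measure ordered these features differently. For pho4 they were mtr4 (0.975) and air1 (0.972), which encode exosome cofactors, and the kinesin gene klp6 (0.969). For pho84 they were rrp1 (0.971), the ribosomal protein gene rps1001 (0.957) and the cap-binding protein gene cbc2 (0.956). For tgp1 they were SPCC965.10 (0.972), ubc12 (0.947) and the proteasome gene pre9 (0.941). For pho7 they were the nucleoporin gene nup40 (0.917), gef1 (0.869) and the vacuolar alkaline phosphatase gene pho8 (0.858). Like pho7, pho8 passed in none of the 6 comparisons, and neither did npp106. Over the deviations from the strain means, r between pho7 and pho8 was 0.82. None of the 5 genes was among the 3 closest of another.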

How the data were processed

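Per the labels' protocols, total RNA was extracted with hot phenol and hybridised to tiling arrays after a double-stranded target assay. The deposited table holds log2 levels, 1 per feature and array, made by the authors with R 2.10.0 and affy per the submitters' processing notes. Neither labels nor headers name the background correction, normalization, probe summary or genome build, and such steps can compress changes of dim features. Array medians lay between 11.37 and 11.42, and the median SD within a strain was 0.0538 to 0.0715. Whether replicates came from separate cultures is stated only as biological replicates, and no batch is given.

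The levels were used as deposited in limma 3.58.1 under R 4.3.3: 4 groups over 12 arrays, moderated 2-sided tests (prior degrees of freedom 2.44, residual 8), Benjamini-Hochberg adjustment over 5483 features and a threshold of 0.05. The fit was tested on simulated data with noise drawn independently for each array, which does not cover pairing of arrays by replicate number. The 5 genes and the lists were chosen with earlier results of these data known, and p was never adjusted within a list. Named genes are the 5 genes, neighbours past the threshold, up to 3 members per list with the largest change past it or else the smallest p, and the 3 features with the highest r. Names and gene order came from RefSeq's genes of assembly ASM294v3, which matched 5350 features (13 by synonym). The list names vtc1, pho88 and erh1 matched no feature. Promoter and protein sequences were not used here.

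To check whether replicate numbers pair the arrays, deviations from the strain means were correlated between arrays of 1 number. All 3 correlations exceeded 0.1 for dcr1Δ (0.151, 0.354 and 0.252) and dcr1ΔC33 (0.177, 0.388 and 0.223) with wild type, and for dcr1ΔC33 (0.184, 0.3 and 0.131) and dcr1-SHSS (0.178, 0.437 and 0.266) with dcr1Δ. The numbers were taken as pairing there. They were not for dcr1-SHSS with wild type (0.093, 0.284 and 0.266) or dcr1ΔC33 (0.021, 0.351 and 0.139). Since 0.093 lies just below 0.1, this split depends on where the cutoff is set. Alternatives included each array left out, the replicate block, the 2 compared strains alone, a filter on dim features (the lowest 20 percent, at mean levels up to 9.46), median centring, quantile normalization, and trended and robust moderation. For neighbours and list members they were chosen after seeing the data.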

Additional observations from a re-analysis of the deposited data

How the results depend on the processing

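Of 180 values of the 5 genes under alternatives other than leaving out an array, 173 kept their direction and their side of the threshold, as did 338 of 360 with 1 array left out. Fitting the replicate number as a block brought pho84 in dcr1Δ versus wild type past the threshold (-0.206, adjusted p = 0.0147) and ended or added no other call among the 5 genes. Among neighbours and list members it added 20 calls and ended 0 in the 4 comparisons where the numbers pair the arrays, an alternative chosen after seeing the data. It raised the features called to 295 from 172 in dcr1Δ versus wild type and to 847 from 433 in dcr1ΔC33 versus dcr1Δ. The features called also rose above the 1771 of dcr1ΔC33 versus wild type and the 1456 of dcr1-SHSS versus dcr1Δ. The 20 added calls are therefore to be read beside a gain over all features in each paired comparison. The fit to the compared strains alone ended the calls of pho1 in dcr1-SHSS versus wild type (-0.173), pho4 in dcr1ΔC33 versus dcr1Δ (-0.191) and tgp1 in dcr1ΔC33 versus dcr1Δ (0.319). It gave 73 features in dcr1Δ versus wild type, 272 in dcr1ΔC33 versus dcr1Δ, 908 (from 1456) in dcr1-SHSS versus dcr1Δ and 1 (from 8) in dcr1-SHSS versus dcr1ΔC33; it has fewer arrays to estimate the spread. Quantile normalization ended the call of pho4 in dcr1ΔC33 versus dcr1Δ (-0.185) and turned the sign of pho7, uncalled either way, in dcr1ΔC33 versus wild type (0.002) and versus dcr1Δ (0.006), and of rhp1602 in dcr1ΔC33 versus wild type (-0.016); the cause was not tested. For dcr1-SHSS versus dcr1ΔC33 the features called were 2 under it, 0 without the lowest 20 percent and 4 with trended moderation.

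With 1 array left out, the features called ranged from 82 to 168 in dcr1Δ versus wild type (fewest without wild-type array 2 and dcr1Δ arrays 2 and 3), from 1178 to 1777 in dcr1ΔC33 versus wild type (fewest without dcr1ΔC33 array 3), from 1729 to 2215 in dcr1-SHSS versus wild type, from 120 to 482 in dcr1ΔC33 versus dcr1Δ (fewest without dcr1ΔC33 array 3 and dcr1Δ array 1), from 750 to 1508 in dcr1-SHSS versus dcr1Δ (fewest without dcr1Δ array 1) and from 1 to 11 in dcr1-SHSS versus dcr1ΔC33 (fewest without dcr1ΔC33 array 1 or dcr1-SHSS array 2). The value of pho84 in dcr1ΔC33 versus wild type ranged from -0.274 to -0.194. In dcr1ΔC33 versus dcr1Δ the ranges were -0.225 to -0.167 for pho4, 0.248 to 0.392 for tgp1, -0.095 to 0.021 for pho84 and -0.032 to 0.005 for pho7. In dcr1Δ versus wild type they were -0.014 to 0.131 for tgp1 and -0.052 to 0.002 for pho7. Of 216 list counts under alternatives, 176 stayed within 1.5 times the count reported. Spearman's rho in place of Pearson's r kept 1 of the 3 closest features of pho1, of pho84 and of tgp1, and 0 of pho4. Signal over background was not available for these features, and 3 arrays per strain limit the precision.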

Other observations

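Some neighbours and list members differed between mutants by the test. Of the 24 neighbours, 3 were higher and 1 lower in dcr1ΔC33 than in dcr1Δ, beside 4.61 and 3.28 percent of all features. In dcr1-SHSS 4 were higher and 5 lower than in dcr1Δ, beside 8.85 and 17.7 percent. The 5 lower ones were flx1 (-0.45 ± 0.08, limma adjusted p = 0.00372), SPBC1271.10c (-0.3 ± 0.09, 0.0406), mug96 (-0.28 ± 0.08, 0.0304), tom40 (-0.23 ± 0.04, 0.0032) and pet802 (-0.21 ± 0.05, 0.0111). The means of mug96, 5.27 in dcr1-SHSS and 5.56 in dcr1Δ, were at or below that of the deleted dcr1 gene in dcr1Δ (5.56). Among genes that were higher than in dcr1Δ, SPBPB2B2.06c, nrg1 and pho841 passed against wild type in no mutant. The first 2 of these are dim features, below a mean level of 9.46. SPBPB2B2.06c, from the list of other phosphatase and phosphate transport genes, lay at 8.67, 9.02 and 9.43 in wild type and at 8.58, 8.37 and 8.52 in dcr1Δ. It lay at 9.66, 9.12 and 9.63 in dcr1ΔC33 and at 9.23, 9.67 and 9.59 in dcr1-SHSS. The dcr1Δ arrays were below all others. It was higher than in dcr1Δ by 0.98 ± 0.2 in dcr1ΔC33 (limma adjusted p = 0.0172) and by 1.01 ± 0.2 in dcr1-SHSS (0.00638). The gene nrg1, the third measured feature beyond pho1, was likewise higher than in dcr1Δ by 1.1 ± 0.21 in dcr1ΔC33 (limma adjusted p = 0.0145) and by 1.06 ± 0.21 in dcr1-SHSS (0.00685). The phosphate transporter gene pho841, a paralogue of pho84, was 0.23 ± 0.06 higher in dcr1-SHSS than in dcr1Δ (limma adjusted p = 0.0175), whereas for pho84 that difference did not pass. The inositol pyrophosphate kinase gene asp1 was higher than in dcr1Δ by 0.15 ± 0.04 in dcr1ΔC33 (0.0308) and by 0.29 ± 0.04 in dcr1-SHSS (limma adjusted p = 0.000871). For these differences only the replicate block was read as an alternative, and it ended none of them. Since the block ended 0 calls among neighbours and list members in the paired comparisons, this is a weak check. Whether the differences hold with single arrays left out was not examined. The replicate block brought prt2 past the threshold in dcr1ΔC33 (0.43 ± 0.1, limma adjusted p = 0.0252) and dcr1-SHSS (0.39 ± 0.1, 0.0162) versus dcr1Δ.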
